A study of Mus musculus with 12 samples.

Results

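The comparison described here asks how a ketogenic diet moved liver mRNAs between heavy and light polysomes. For each gene the log2 ratio of the heavy over the light pool was taken in each animal, and the difference in this ratio between the diets was tested as the interaction of pool and diet. It was measured for 8077 nuclear protein-coding genes, those with at least 10 counts in at least 4 of 10 wild-type libraries, out of 27179 gene IDs in the deposited tables. RNA was sequenced from sucrose gradients of livers of male C57BL/6 mice, whose age the labels do not state. The chow group held wild-type animals chow 1, chow 2 and chow 3, and the ketogenic group held wild-type animals keto 1 and keto 2, each with 1 heavy and 1 light library. The protocol gives 24 h on either diet with food always available, while a label gives a time of 0 h and the series' design text speaks of fasted livers. Fractions 2 to 7 and 8 to 13 were pooled, and the labels do not say which pool is heavy. A chow-fed eIF4E S209A/S209A animal brings the series to 12 libraries and entered none of the tests unless named.

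Ribosomes load onto an mRNA one after another, and an mRNA that initiates often carries many of them and sediments deep in a sucrose gradient. Messages with few ribosomes stay in lighter fractions, so the ratio of heavy over light is read as a measure of ribosome loading, apart from how much of the mRNA a cell contains. A ketogenic diet supplies mostly fat and little carbohydrate, and the liver on it burns fatty acids and makes ketone bodies. A ratio of this kind moves with the heavy pool, with the light pool, or with both, and RNA in other heavy particles, or RNA of the nucleus, can enter either pool.

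The libraries differed by animal as well as by diet. Counts on the 8077 genes ran from 350092 (keto 2 light) to 1741508 (chow 3 heavy), and totals from 3924075 to 13263355. In chow 1 and chow 2 the mitochondrial ribosomal RNAs took 58.2% and 52.6% of the light counts against 16.7% and 12.9% of the heavy ones, whereas chow 3 had 13.5% in light and 13.8% in heavy. In keto 1 and keto 2 the order was turned, with 37.6% and 51.8% in light and 47.3% and 74.2% in heavy. Nuclear noncoding RNA here means a drawn-up list of long and small RNAs such as Malat1 and Rpph1, not all noncoding RNA. As a percent of the counts of nuclear protein-coding genes, it was 0.997, 1.41 and 2.08 in heavy for chow 1, 2 and 3. In their light pools it was 7.31, 4.08 and 1.38. For keto 1 and 2 it was 11.2 and 10.5 in heavy and 6.12 and 8.78 in light. The file headers name Bowtie2 for chow 1 and chow 2, HISAT2 for chow 3 and the S209A animal, and no aligner for the keto animals. The title wording sets chow 3 and S209A apart too ("fed", where the others say chow or keto). Diet and these differences in processing cannot be told apart.

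The genes with the smallest p-values on the lower side belonged mostly to 1 family, the major urinary proteins (Mup), small carriers of pheromones that the male liver secretes. The Mup genes are recent, nearly identical copies in a cluster on chromosome 4, so reads could be split or shared among them and the values of single copies are uncertain. Of 20 Mup genes measured, 13 had an entry in the promoter table used here (RefSeq, GRCm38.p6). The last 50 bases before the start given there are shown for 5 of them, written 5′ to 3′ on the minus strand. That start differs from the end of the gene span used elsewhere here. The windows of Mup9, Mup10 and Mup15 lie inside the gene span, and that of Mup18 crosses its end. Capitals mark the TATA-like run TATATAA.

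Mup9 (chr4:60421953-60422002): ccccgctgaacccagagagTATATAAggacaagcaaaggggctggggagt

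Mup10 (chr4:60582156-60582205): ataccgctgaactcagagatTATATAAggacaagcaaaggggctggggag

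Mup15 (chr4:61439705-61439754): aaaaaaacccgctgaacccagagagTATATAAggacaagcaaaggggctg

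Mup18 (chr4:61674095-61674144): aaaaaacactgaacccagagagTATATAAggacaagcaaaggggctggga

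Mup19 (chr4:61782225-61782274): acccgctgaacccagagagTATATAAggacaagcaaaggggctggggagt

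The 5 windows were picked after the sequences had been seen, from those that hold the run, and show how alike these copies are. The windows of Mup7, Mup11 and Mup14 do not hold it. A run of 25 bases, TATATAAggacaagcaaaggggctg, is shared by all 5 of them. TATATAA, searched on both strands, lay in this window of 10 of the 13 Mup promoters and of 295 of 32851 promoters in the table (0.898%). A match describes the letters in the window and does not show a binding site.

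No gene passed the test of the diet difference. edgeR's quasi-likelihood test with the animal as a block called 0 of 8077 genes at an adjusted p of 0.05 (0.0%), with a lowest adjusted p of 0.157. DESeq2 called 6, all lower and all Mup genes, and limma-voom 20, of which 18 were lower and 15 were Mup genes. At an unadjusted p of 0.05 the test marked 467 genes (5.78%), 215 with a higher ratio in keto (2.66%) and 252 with a lower one (3.12%). The difference was above 0 in 4412 genes (54.6%) and below 0 in 3665 (45.4%), with a median of 0.14 on the log2 scale. Both keto animals lay above all 3 chow animals in 1095 genes (13.6%) and below them in 864 (10.7%). With library size alone and no scaling factor the median of all genes moved to 0.64, and 569 of the 650 genes with an unadjusted p under 0.05 were then higher in keto, so differences below are relative to that shift.

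Within each diet the test also called few genes. In chow it called 2 of 8077 (0.0248%), both higher in heavy, the mitochondrial aldehyde dehydrogenase Aldh1b1 and the acute phase apolipoprotein Saa1, and it marked 573 at an unadjusted p of 0.05 (7.09%). In keto it called 0 (0.0%) and marked 336 (4.16%). The animals of a group did not share 1 pattern. Across the 2020 genes with the highest mean CPM (counts scaled to a common library size), the ratios of chow 1 and chow 2 correlated at Pearson's r = 0.609, those of chow 1 and chow 3 at -0.087 and those of chow 2 and chow 3 at -0.069. Those of keto 1 and keto 2 correlated at 0.136, and those of chow 3 and keto 1 at 0.452. These are descriptions across genes, which are not replicates, and pairs of animals differ in depth and in the processing named by the headers. The ratios of all 8077 genes had a standard deviation of 1.38, 1.20 and 0.724 in chow 1, 2 and 3, and of 0.982 and 1.41 in keto 1 and 2.

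The Mup genes had the largest differences of any group described, and all 20 had a lower ratio in keto, with a median of -2.67 against 0.14 over all genes. This list was drawn up after its values had been seen. The median ratio of the family was 1.73 in chow 1 and 1.13 in chow 2, but -0.70 in chow 3, -0.94 in keto 1 and -2.66 in keto 2, so chow 3 lay close to keto 1. Both keto animals were below all chow animals for 11 of the 20 (55.0%, against 10.7% of all genes), and in the other 9 chow 3 was at or below the higher keto animal. Both pools moved: the median of the difference between diet means of log2(CPM + 1) was -1.01 in heavy and 1.77 in light. Together the family held 1.79%, 2.67% and 0.189% of the measured counts in the heavy pools of chow 1, 2 and 3 and 0.472% and 0.619% in those of keto 1 and 2. In light it held 0.781%, 1.69% and 0.726% in chow and 0.955% and 3.21% in keto, so the level of the family itself varied widely between chow animals. In bulk liver fewer cells that make a message and less of it per cell cannot be told apart.

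Mup9 and Mup18, whose promoter windows are printed above, were named by the rule, which required that the diets not overlap. Mup9 (chromosome 4, 60418046 to 60422085) had 323, 1159 and 107 counts in the heavy and 126, 411 and 73 in the light libraries of chow 1, 2 and 3. Keto 1 and keto 2 had 84 and 70 in their heavy and 143 and 270 in their light pools. Its log2 ratios were 1.82, 1.51 and 0.44 in chow and -1.03 and -2.78 in keto. The difference was -3.22 ± 0.62 (SE, n = 3 chow and 2 keto animals) and did not pass (edgeR adjusted p = 0.157). Mup18 had ratios of 1.62, 0.86 and 0.91 in chow and -0.85 and -2.08 in keto, with a difference of -2.61 ± 0.55 (edgeR adjusted p = 0.157). For Mup18 the 3 chow animals lay together. Mup15 differed by -3.40 ± 0.71, but its ratio in chow 3 (-0.71) was nearer to keto 1 (-1.51) than to chow 1 (1.68) or chow 2 (1.45). Mup11, Mup16, Mup22, Mup10 and Mup17, also named by the rule, differed by -2.44 to -2.80, none of them past the threshold, and Mup10 and Mup17 had chow 3 (-0.52 and -0.62) next to keto 1 (-0.65 and -0.77).

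The other genes named on the lower side were Park7, Rpl37rt, H2ac18 and Fam50a, and none passed. Park7 encodes DJ-1, a protein that guards against oxidative stress. The heavy pools of chow 1, 2 and 3 gave 121, 178 and 338 counts and those of keto 1 and 2 gave 27 and 38, with 35, 98, 313, 75 and 71 in light in the same order. Its ratios were 2.22, 0.87 and 0.02 in chow and -1.68 and -1.73 in keto, and the difference was -2.76 ± 0.67 (edgeR adjusted p = 0.399). The keto animals lay together and the chow animals did not. Fam50a, a nuclear protein, differed by -3.40 ± 0.89 (edgeR adjusted p = 0.495), with ratios of 2.32, 1.76 and 0.91 in chow and -1.52 and -1.54 in keto and as few as 6 counts in a heavy keto library. Rpl37rt, a retrotransposed copy of a ribosomal protein gene whose reads can belong to the parent gene, differed by -2.33 ± 0.60. H2ac18, a replication-dependent histone H2A gene, differed by -2.39 ± 0.63, with only 8 heavy and 2 light counts in chow 3.

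**Figure D1:**
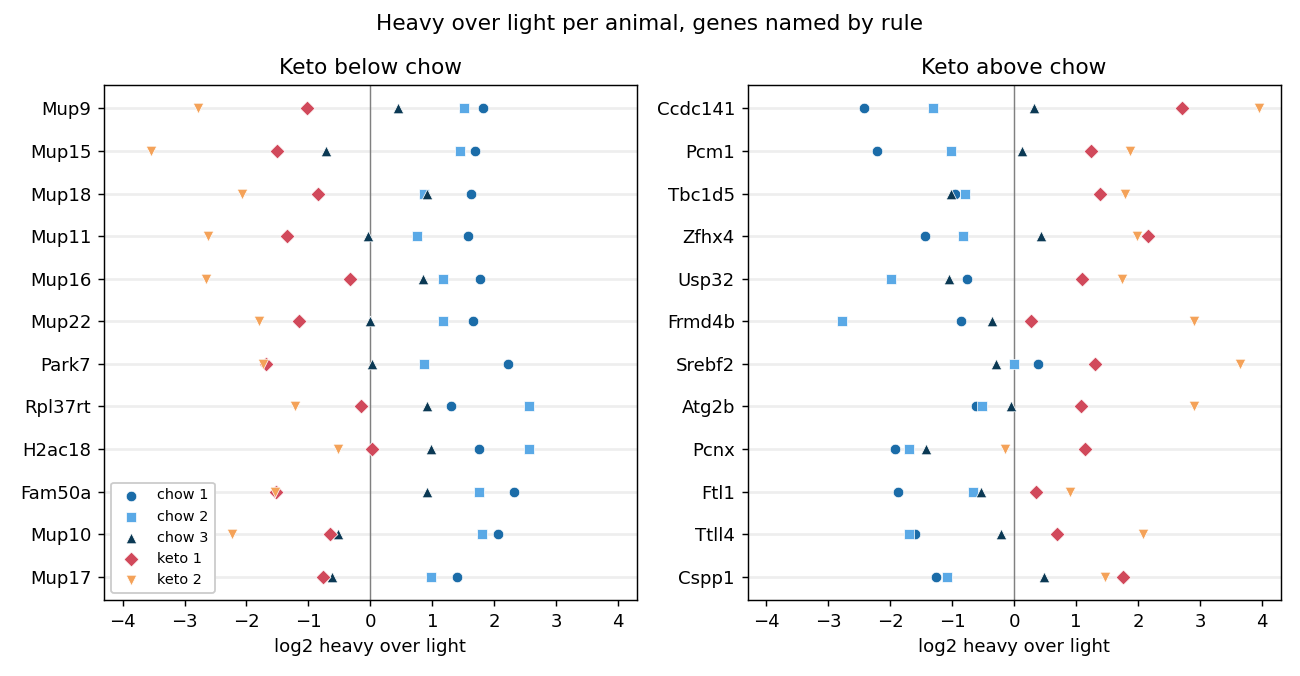
Log2 heavy over light for the 24 genes named by the rule, 12 with both keto animals below (left) and 12 above all chow animals (right), 1 symbol per animal; the rule required this separation. The chow 3 triangle lies between the other animals for most of them, near 0 for Mup22 and Park7, while chow 1 and chow 2 lie farther out.

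On the higher side none of the 12 named genes passed either. Ccdc141, a centrosomal coiled-coil protein, had ratios of -2.41, -1.30 and 0.32 in chow and 2.72 and 3.95 in keto, resting on 2 and 0 counts in the light libraries of keto 1 and keto 2. Pcm1, the scaffold of centriolar satellites, had 15, 41 and 285 heavy and 103, 86 and 244 light counts in chow, against 83 and 64 in heavy and 28 and 9 in light in keto. Its ratios were -2.22, -1.01 and 0.13 in chow and 1.25 and 1.88 in keto, and the difference was 2.57 ± 0.75 (edgeR adjusted p = 0.81). The light pool carried most of it: the difference between diet means of log2(CPM + 1) was -1.93 in light and 0.72 in heavy. Srebf2, the transcription factor that drives cholesterol synthesis, had ratios close to 0 in chow (0.39, -0.01 and -0.29) and of 1.31 and 3.65 in keto, with a difference of 2.23 ± 0.71 (edgeR adjusted p = 0.84). Its light library of keto 2 held 3 counts. Ftl1, the ferritin light chain, whose translation is known to be set by iron through an element near the cap, was the best counted of the 12. It had 43, 129 and 244 heavy and 223, 208 and 333 light counts in chow, and 224 and 513 in heavy and 144 and 151 in light in keto. Its ratios were -1.87, -0.66 and -0.53 in chow and 0.36 and 0.90 in keto, and the difference was 1.64 ± 0.56 (edgeR adjusted p = 0.84). Tbc1d5, Zfhx4, Usp32, Frmd4b, Atg2b, Pcnx, Ttll4 and Cspp1 differed by 2.26 to 2.84, with adjusted p of 0.81 to 0.84.

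Messages of secreted plasma proteins had negative differences almost throughout. Hepatocytes make these proteins on ribosomes bound to the endoplasmic reticulum. Of 59 measured genes 57 had a negative diet difference, with a median of -0.98 against 0.14 over all genes. The test called 0 of them and marked 19 at an unadjusted p of 0.05, all lower (32.2%, against 3.12% of all genes). Both keto animals lay below all chow animals for 35 of the 59 (59.3%, against 10.7%). The list's median ratio was 1.11, 0.78 and 0.13 in the chow animals and -0.34 and -0.35 in the keto animals. The difference lay in the heavy pool (median -0.88 between diet means of log2(CPM + 1)) more than in the light pool (-0.03). In the heavy pools the 59 genes held 31.2%, 26.6% and 18.8% of the measured counts in chow and 14.1% and 17.1% in keto, and in the light pools 16.3% to 18.1%. The apolipoprotein gene Apoe alone gave 59656 of 614805, 111503 of 1136836 and 98594 of 1741508 heavy counts in chow 1, 2 and 3. In keto 1 and 2 it gave 20670 of 725211 and 19452 of 537849, so 1 gene weighs on these sums. The mitochondrial rRNA and nuclear noncoding RNA shares given above moved in the opposite sense in the same animals, and their part in the difference of this list was not tested.

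Fgb, the beta chain of fibrinogen, had the lowest diet difference of the list. Unlike the list median it was lower in keto in both pools, by -2.64 in heavy and -0.80 in light between diet means of log2(CPM + 1). It had 6735, 4787 and 8000 counts in the heavy and 1799, 1104 and 4625 in the light libraries of chow 1, 2 and 3, against 836 and 762 in heavy and 642 and 520 in light in keto. Its ratios were 2.38, 2.13 and 0.70 in chow and 0.11 and -0.31 in keto, without overlap, and the difference was -1.85 ± 0.57 (edgeR adjusted p = 0.84). Apoe, the apolipoprotein of remnant particles and one of the most counted messages, had ratios of 2.42 and 2.07 in chow 1 and 2 but -0.12 in chow 3, next to -0.19 and -0.16 in keto. Apoh, a phospholipid-binding plasma protein, and Serpina1c, an antitrypsin, differed by -1.59 ± 0.55 and -1.38 ± 0.53. The albumin gene Alb did not follow them: its ratios were 0.64, -0.26 and 0.60 in chow and -0.26 and 0.09 in keto, and the groups overlapped. The acute phase list, with 15 of 21 negative and a median of -0.998 (-0.24 without keto 2), was lower mainly in keto 2, where its median ratio was -0.51 against 0.64 in keto 1 and 0.80 to 1.22 in chow. Saa1 had a ratio of 2.49 in keto 1, inside the range of chow, and of -0.78 in keto 2. Hamp, the gene of the iron hormone hepcidin, had ratios of 3.83, 2.03 and -1.11 in chow and -0.97 and -0.51 in keto, so chow 3 lay below both keto animals.

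The machinery of the secretory pathway had a smaller median difference than the secreted proteins, a contrast that was not tested. Of 48 genes of translocation, folding and export 35 were negative, with a median of -0.55 (-0.35 without chow 1) and 5 marked at an unadjusted p of 0.05, all lower (10.4%, against 3.12%). Spcs2, a subunit of signal peptidase, had ratios of 1.46, 0.35 and 0.30 in chow and -1.27 and -1.62 in keto, with a difference of -2.21 ± 0.67 (edgeR adjusted p = 0.84). The oligosaccharyltransferase subunit Rpn1 and the disulfide isomerases Pdia6 and Pdia3 differed by -1.62, -1.79 and -1.42. Heat shock proteins and chaperonins were negative for 24 of 26, with a median of -0.88, and 7 were marked lower (26.9%, against 3.12%). Hsp90ab1, a cytosolic HSP90, had ratios of 1.63, 2.04 and 0.62 in chow and 0.02 and -0.51 in keto, with a difference of -1.68 ± 0.55. Its heavy pool held 4576, 5105 and 5414 CPM in chow and 1776 and 1027 CPM in keto.

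**Figure D2:**
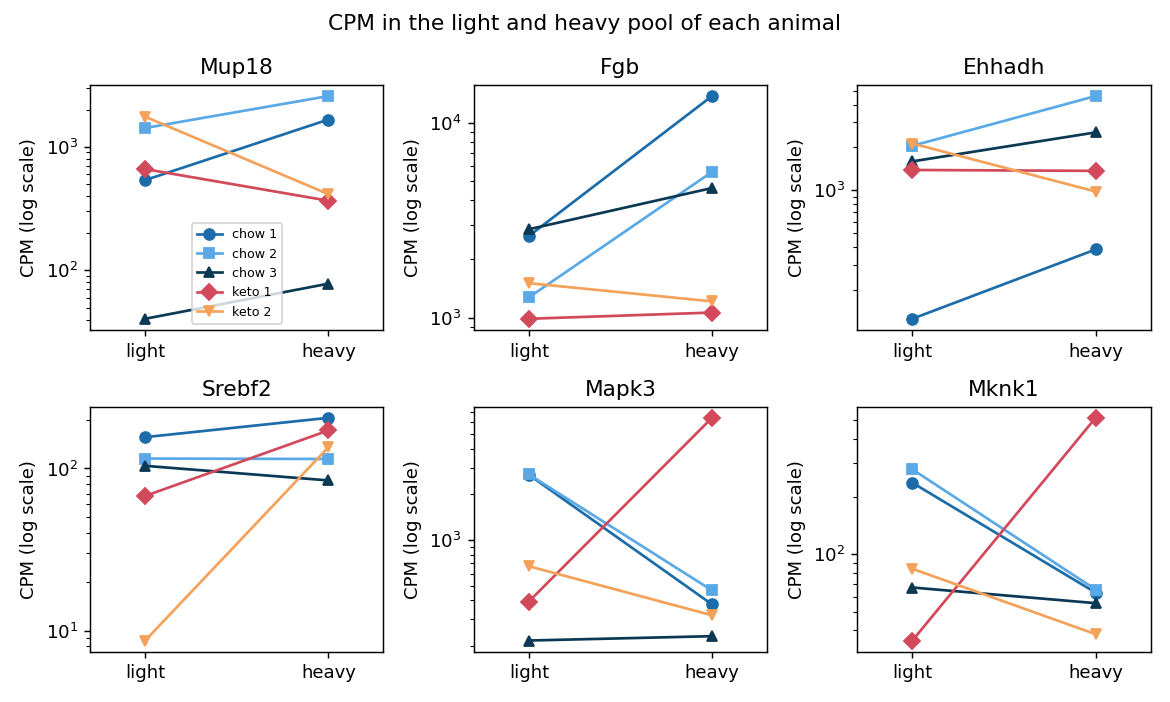
CPM (log axis) in the light and the heavy pool of each animal for 6 genes, with 1 line per animal. Lines of Fgb and Ehhadh climb from light to heavy in the chow animals and stay level or decline in keto 2, while those of Mapk3 and Mknk1 climb steeply in keto 1 and not in keto 2.

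Genes of fat oxidation, the pathway a ketogenic diet is known to engage, had lower ratios in keto for most members. Of 21 genes of peroxisomal and omega oxidation 18 were negative, with a median of -0.79, and 4 were marked lower (19%, against 3.12%). Both keto animals lay below all chow animals for 8 (38.1%, against 10.7% of all genes). Ehhadh, the bifunctional enzyme of peroxisomal oxidation, had 189, 3927 and 4411 heavy and 86, 1783 and 2597 light counts in chow, against 1077 and 616 in heavy and 903 and 736 in light in keto. Its ratios of 1.60, 1.16 and 0.67 in chow and -0.02 and -1.12 in keto did not overlap, and the difference was -1.71 ± 0.54 (edgeR adjusted p = 0.84). Cyp4a31 and Cyp4a14, omega-hydroxylases of fatty acids, differed by -2.27 ± 0.65 and -1.43 ± 0.58. In chow 1 Cyp4a31 had only 15 heavy and 3 light counts, against 429 and 149 in chow 2. Cyp4a14 rested on 100 heavy and 36 light counts in chow 1 against 10027 and 3039 in chow 2. Scp2, a peroxisomal thiolase and lipid carrier, differed by -1.32 ± 0.57. The carnitine shuttle and mitochondrial oxidation had 16 of 22 negative, with a median of -0.60 (-0.25 without chow 1). Hadha, of the trifunctional protein, Acaa2, a thiolase, and Acadl and Acads, acyl-CoA dehydrogenases, differed by -1.08 to -1.27.

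Ketogenesis was measured over few genes. Acat1, a thiolase of the pathway, had ratios of 0.78, 0.33 and 0.07 in chow and -0.31 and -0.50 in keto, without overlap, and differed by -0.79 ± 0.52 (edgeR adjusted p = 0.862). Sirt3, a mitochondrial deacetylase, differed by 1.74 ± 0.82. Over the 6 measured genes the median was -0.72 (-0.45 without chow 1), with 5 negative. The other PPARalpha targets had 13 of 20 negative and a median of -0.33 (-0.83 without chow 3 and -0.08 without chow 2). Fabp1, the liver fatty acid binding protein, and Acot1, an acyl-CoA thioesterase, differed by -1.77 and -1.66, but both had a chow 3 ratio (-1.28 and -1.04) inside the keto range. Retsat, retinol saturase, differed by -1.34 ± 0.54 without overlap. Ppara, the receptor, had ratios of -0.59, -0.81 and -0.11 in chow and 0.15 and -0.02 in keto, with a difference of 0.57 ± 0.52. Cpt1a, the entry step of the carnitine shuttle, differed by -0.61 ± 0.51 and Angptl4, an inhibitor of lipoprotein lipase, by 0.17 ± 0.56, both with overlap. Fgf21, a fasting hormone, and Pdk4, the kinase that shuts pyruvate dehydrogenase, had 0 to 70 counts per library, and their differences (-0.07 ± 1.18 and 0.38 ± 1.78) were not resolved at this depth.

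The 2 lists of lipid synthesis had medians on either side of that of all genes (0.14), and those of sugar metabolism had negative ones. Lipogenesis had 14 of 21 positive and a median of 0.06 (0.29 without chow 1, 0.21 without chow 2 and 0.35 without keto 1). Mlxipl, which encodes ChREBP, a carbohydrate-sensing transcription factor, had ratios of -0.90, -0.88 and -0.97 in chow, the closest agreement of chow animals among the genes named here, and of -0.34 and 1.22 in keto, with a difference of 1.34 ± 0.57 (edgeR adjusted p = 0.84). Scd1, Fasn and Srebf1, a desaturase, the fatty acid synthase and their regulator, each had the keto animals on both sides, -0.83 and 1.40, -0.48 and 1.0, and -1.24 and 0.67. Cholesterol synthesis had 14 of 24 positive and a median of 0.28, which was 0.96 without keto 1, -0.22 without keto 2, 0.49 without chow 1, 0.09 without chow 2 and 0.06 without chow 3. Sqle, squalene epoxidase, had 0 counts in the light library of keto 2. Mvd, of the mevalonate steps, differed by -1.79 ± 1.09. Gluconeogenesis had 9 of 14 negative and a median of -0.27 (-0.08 without chow 1, -0.48 without chow 3 and -0.57 without keto 1). Pck1, its rate-limiting enzyme, had ratios of 0.81, 1.42 and -0.49 in chow and -0.27 and -0.28 in keto, and G6pc, of its last step, had keto ratios of -0.81 and 1.03. Glycolysis and fructolysis had 14 of 16 negative and a median of -0.61 (-0.33 without chow 1), with Gpi1 and Eno1, glycolytic enzymes, at -1.44 and -1.25.

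Most enzymes of detoxification had negative differences too. Of 42 drug-metabolising genes 38 were negative, with a median of -0.85, and at an unadjusted p of 0.05 there were 9 marked lower (21.4%, against 3.12%) and 1 higher (2.38%, against 2.66%). Cyp1a2, a pericentral cytochrome P450, had ratios of 2.43, 2.00 and -0.52 in chow and -1.36 and -0.37 in keto, with a difference of -2.21 ± 0.70 (edgeR adjusted p = 0.84). Cyp2e1, also pericentral, had ratios of 1.42, 0.995 and 0.66 in chow and -0.09 and -0.54 in keto, without overlap, and a difference of -1.34 ± 0.52. Gstp1, a glutathione transferase, differed by -2.09 ± 0.77 but had -2.20 in chow 3 beside -2.04 and -2.49 in keto. Urea cycle and amino acid enzymes had 29 of 38 negative and a median of -0.31, with the X-linked urea cycle gene Otc at -1.47 ± 0.74. The Otc ratio of chow 3 (-0.84) lay below those of both keto animals (-0.55 and -0.07). Bile acid genes had 10 of 18 negative and a median of -0.06 (0.06 without chow 1, 0.08 without keto 1, and -0.18 to -0.33 without another animal). Cyp7b1, of the alternative pathway, differed by -1.89 ± 1.0 and Cyp7a1, the rate-limiting enzyme of the classic one, by 0.79 ± 0.58. The diets overlapped for both, and Cyp7b1 was lowest in chow 3 (-2.86, against -2.23 and -1.32 in keto).

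Messages of the translation apparatus had small negative medians that depended on single animals. Cytosolic ribosomal protein mRNAs, whose terminal oligopyrimidine motif places them under mTOR, had 32 of 54 negative (82 genes were listed and 28 did not reach the count rule), with a median of -0.26, 4 marked lower (7.41%, against 3.12%) and 12 with both keto animals below all chow animals (22.2%, against 10.7%). Their median ratio was 0.57, 0.28 and 0.84 in chow and 0.37 and 0.03 in keto, and without chow 3 the median difference was 0.13, and without keto 1 it was -0.58. Translation factors with this motif had 12 of 19 negative and a median of -0.31 (0.01 without chow 1, -0.07 without keto 1, -0.58 without chow 2 and -0.56 without keto 2), and both keto animals lay below all chow animals in 5 (26.3%, against 10.7%). Rpl8 had ratios of 1.46, 0.92 and 0.57 in chow and -0.44 and -0.90 in keto, with a difference of -1.65 ± 0.55 (edgeR adjusted p = 0.84). The elongation factors Eef1a1 and Eef2, which carry the same motif, differed by -0.76 ± 0.52 and -1.17 ± 0.50, with both keto animals below all chow animals for each. Eef2 had ratios of 0.71, 0.41 and 0.87 in chow and -0.52 and -0.48 in keto, so here chow 3 lay with chow 1 and chow 2. Nuclear-encoded respiratory chain subunits had 55 of 68 negative and a median of -0.40 (-0.61 without chow 2 and -0.69 without keto 1), with Ndufa10 and Ndufa1 of complex I at -1.86 and -2.18, Cox6b1 of complex IV at -2.44 and Sdha of complex II at -1.18.

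eIF4E, which binds the mRNA cap, and the kinases that phosphorylate it had differences on the positive side, and the largest came from 1 animal. Of 24 genes of this list 16 were positive, with a median of 0.42 (0.17 without chow 1 and 0.23 without chow 2), and 3 were marked higher (12.5%, against 2.66%). Mapk3, which encodes ERK1, a kinase upstream of the MNK kinases, had 5043 counts in the heavy library of keto 1 and 255 in its light one, while keto 2 had 200 and 232. In chow 1, 2 and 3 it had 185, 398 and 401 heavy and 1850, 2355 and 353 light counts. Mknk1, which encodes MNK1, a kinase of eIF4E, followed the same course, with 406 heavy and 23 light counts in keto 1, 24 and 29 in keto 2, 31, 56 and 96 in heavy and 162, 241 and 109 in light in chow. The ratios of Mapk3 were -2.83, -2.54 and 0.09 in chow and 4.02 and -1.07 in keto, and those of Mknk1 were -1.87, -2.05 and -0.26 and 3.78 and -1.09. For both genes keto 1 was the highest of the 5 animals and keto 2 lay inside the range of chow, so the differences of 3.33 ± 1.13 and 2.92 ± 1.03 (edgeR adjusted p = 0.84 for each) rest on keto 1. Eif4g3, a scaffold of the cap complex, had ratios of -1.48, -0.09 and 0.07 in chow and 0.78 and 1.14 in keto. Eif4e itself had 0 to 59 counts per library, and its difference of 1.92 ± 2.2 was not resolved. The 4E-binding protein gene Eif4ebp1 differed by -0.79 ± 0.94 and Mknk2, the gene of MNK2, by 0.62 ± 0.63.

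Stress genes that depend on upstream open reading frames had 10 of 16 positive and a median of 0.26 (0.15 without chow 1, 0.17 without chow 2 and 0.40 without keto 1), with Atf4, the effector of the integrated stress response, at 0.19 ± 0.74, Atf5 at 0.60 ± 0.54 and Ibtk at 1.64 ± 0.80. The 7 effectors of ER and integrated stress had a median of 0.94 (-0.16 without keto 2, 0.57 without chow 2 and 1.5 without keto 1), with median ratios of 1.45 in keto 2 and 0.11 in keto 1. Herpud1, of ER-associated degradation, differed by -1.15 ± 0.55. Splicing factors had 27 of 44 positive and a median of 0.23 (0.098 without chow 3), and 5 were marked higher (11.4%, against 2.66%). Ddx5, an RNA helicase, had ratios of -0.67, -1.25 and -0.22 in chow and 0.34 and 1.09 in keto, with a difference of 1.41 ± 0.55 (edgeR adjusted p = 0.84), and the kinase Prpf4b differed by 1.36 ± 0.56. U2af1, a subunit of the factor that marks the 3′ splice site, had 0 light counts in both keto animals, against 16 and 20 in heavy, so no fold is given. Replication-dependent histones had 14 of 15 negative and a median of -1.17 (-2.26 without chow 3 and -0.60 without chow 2), with 57 of 72 listed genes below the count rule. H2bc4 and H4c8 had chow 1 and chow 2 ratios of 1.43 to 3.01 and all other animals between -0.78 and 0.38. Immediate early genes (6 of 10 positive) had a median of 0.19 (0.86 without chow 3, 0.34 without chow 2, 0.41 without keto 1 and -0.74 without keto 2), and clock genes (11 of 16 positive) one of 0.17 (0.03 without chow 2, 0.28 without chow 3, 0.55 without keto 1 and 0.06 without keto 2).

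The result turned on 1 chow animal. Without chow 3 the same test called 163 of 8077 genes (2.02%), 136 lower (1.68%) and 27 higher (0.334%) in keto. Leaving out chow 1, chow 2 or keto 2 called 0, and leaving out keto 1 called 1, Hspa1b, a heat shock gene named here because it was the single call. Called lower without chow 3 were 18 of the 20 Mup genes (90.0%), 19 of 59 secreted plasma protein genes (32.2%), 12 of 42 drug-metabolising genes, 6 of 21 of peroxisomal and omega oxidation and 4 of 15 histone genes, against 1.68% of all genes. Apoe then stood at -2.42 (edgeR adjusted p = 3.83e-07), Hamp at -3.69 (edgeR adjusted p = 1.46e-06), Cyp1a2 at -3.07 (edgeR adjusted p = 3.13e-05), Fgb at -2.36 (edgeR adjusted p = 3.36e-05) and Fabp1 at -2.66 (edgeR adjusted p = 6.96e-05). Among the 27 called higher were Mapk3 (4.21), Mknk1 (3.55), Pcm1 (3.22), Ccdc141 (5.99) and Ftl1 (1.89). Aligner and title wording set chow 3 apart from chow 1 and chow 2, so this fit is also the one within 1 title wording.

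The left-out animal gives values that this choice of genes did not use. Over the 136 genes called lower, the median ratio was 1.68 and 1.21 in the chow animals of the fit and -0.58 and -0.57 in keto, and chow 3 had -0.34. In 65 of the 136 chow 3 was at or below the higher keto animal. Over the 27 genes called higher, the medians were -1.87 and -1.59 in chow 1 and 2, 0.56 and 0.80 in keto, and 0.13 in chow 3, which was at or above the lower keto animal in 11. The S209A animal, fed chow and sharing its header wording with chow 3, had medians of -0.75 and 0.62. Both chow-fed animals outside the fit therefore had medians with the sign of the keto animals.

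**Figure D3:**
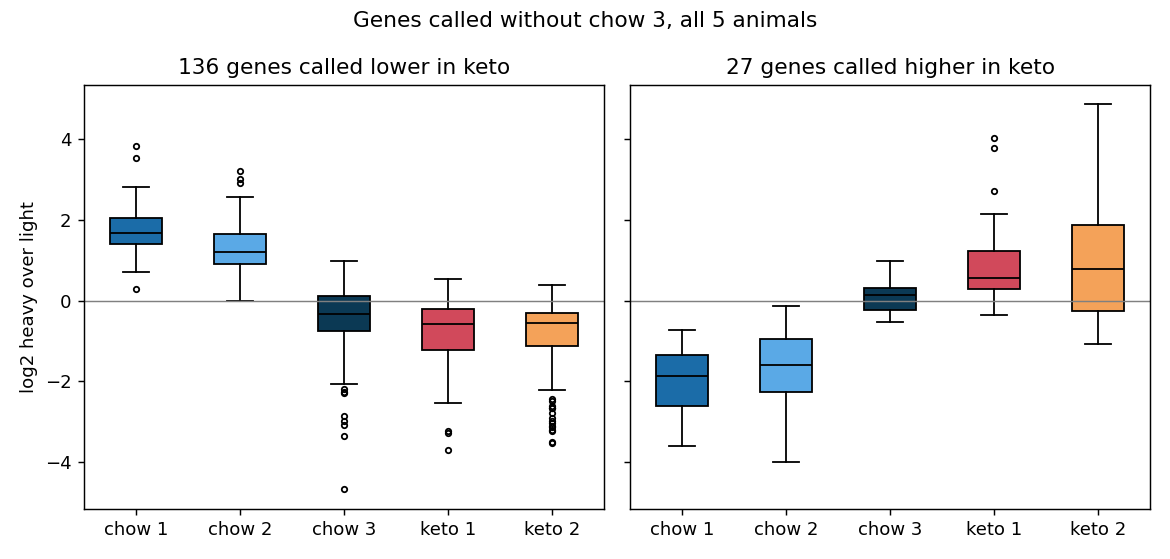
Log2 heavy over light of the 136 and 27 genes called without chow 3, per animal (boxes span the middle 50 percent with the median as a line, whiskers reach 1.5 times the box height, circles lie beyond). The separation of chow 1 and 2 from keto follows from the choice of genes; the chow 3 box, which the choice did not use, lies next to the keto boxes in both panels.

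The genes on either side also differed in their genomic span, a property that the test did not use. The median span from start to end of the gene, introns included, was 9.94 kb for the 136, 88.3 kb for the 27 and 26.1 kb over all 8077. In 4 equal groups of all 8077 genes by span, with medians of 6.11, 17.9, 37.9 and 105 kb, the median diet difference was -0.25, -0.01, 0.20 and 0.52. From the shortest to the longest group the median ratio went from 0.36 to -0.64 in chow 1 and from 0.38 to -0.43 in chow 2. It went from -0.03 to 0.04 in chow 3, from -0.06 to 0.09 in keto 1 and from -0.03 to 0.20 in keto 2. Chow 1 and chow 2 thus followed gene span, and the other 3 animals did so little or in the opposite sense. The sign of each ratio rests on the heavy and light labels as given: exchanged labels in an animal would turn all of its ratios, and whether the labels mean the same fractions in every animal was not tested. Among the 2020 best counted genes the diet difference went from -0.62 to 0.41. Span and depth are linked across genes, and among 4 equal groups by mean CPM the lowest and the highest had medians of 0.54 and -0.15. In chow 1 and chow 2 the listed nuclear noncoding RNA was likewise low in heavy relative to light, and the part of unspliced or nuclear RNA in the difference was not tested.

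**Figure D4:**
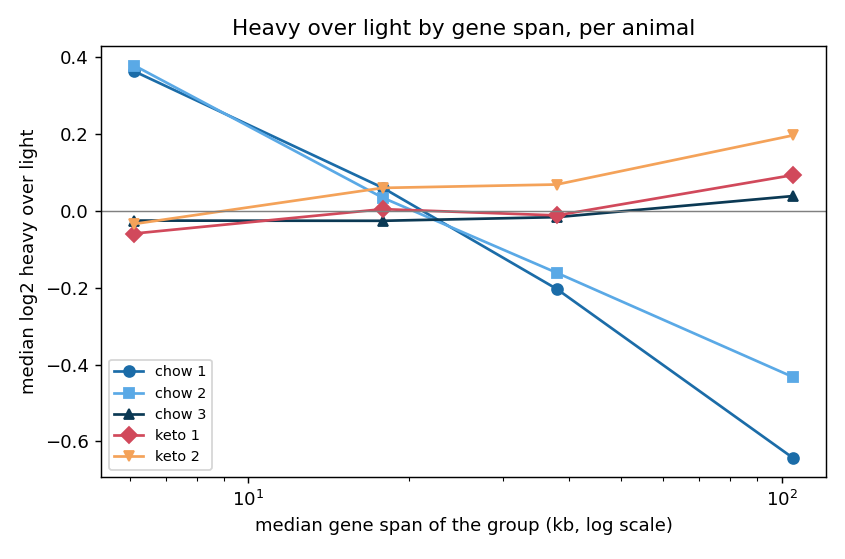
Median log2 heavy over light per animal in 4 equal groups of the 8077 genes by gene span (kb, log axis), about 2019 genes a point. Chow 1 and chow 2 decline from about 0.37 to below -0.4, while chow 3 and the keto animals stay between -0.06 and 0.20.

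Some RNAs outside the 8077 genes also set chow 1 and chow 2 apart. Malat1, a long noncoding RNA retained in the nucleus, had ratios of -1.87 and -0.69 in chow 1 and 2, 0.77 in chow 3, and 1.48 and 0.64 in keto. Rpph1, the RNA of RNase P, had -2.92, -1.96 and -0.16 in chow and 0.22 and -0.07 in keto, and Rmrp, of RNase MRP, had -2.17, -1.37 and -0.48 against 0.06 and -0.15. Over 13 such RNAs the median was -2.17 and -2.05 in chow 1 and 2, 0.71 in chow 3, and 0.22 and 0.11 in keto. Gas5, Rnu11, Rnu12 and Snhg11, noncoding RNAs of this list, did not show that order. Both keto animals lay above all chow animals in 5 of the 13, while 13.6% of the 8077 genes did so. Rnu1b1, 1 of the 5, had 0 counts in both pools of chow 3, so its ratio there rests on an added count of 0.5. The 13 mitochondrially encoded mRNAs had medians of -0.43, -0.80 and 0.00 in chow and -0.48 and -0.06 in keto, so keto 1 lay beside chow 1 there. The chow 3 median is uncertain: ND4L and ATP8 had 0 counts in both its pools, and ATP6, COX2, COX3 and ND3 had 0 to 4. For mitochondrial rRNA as a share of all counts the log2 ratio was -1.80, -2.03 and 0.03 in chow and 0.33 and 0.52 in keto, an exact permutation p of 0.2 (two-sided, 3 against 2 animals, smallest possible p 0.1, adjusted over 4 shares 0.4). The share of the listed nuclear noncoding RNAs gave p = 0.3 by the same exact test. The share of nuclear protein-coding genes gave p = 0.6 and that of the most counted ID, which has no name here, p = 0.1, both by the same exact test.

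Cell type markers were checked in the same libraries. Hepatocyte markers held 5.22% to 8.34% of the measured counts in every library. Their differences followed the secreted proteins (9 of 10 negative, median -0.60). For 6 of the 10 both keto animals lay below all chow animals (60%, against 10.7% of all genes). Pericentral (11 of 12) and periportal (13 of 15) markers were mostly negative as well, with medians of -0.72 (-0.45 without chow 1) and -0.39 (-0.62 without keto 2). Kupffer cell (0.0330% to 0.0823%), sinusoidal endothelial (0.0516% to 0.252%) and stellate cell (0.0333% to 0.0570%) markers were low throughout. Endothelial markers had 7 of 16 positive and a median of -0.11, which ran from -0.39 to 0.34 without 1 animal, while 9 of 11 Kupffer and 8 of 9 stellate markers were negative. Erythroid markers held 0.00281% to 0.101%, the most in keto 2 light, and all 5 measured were negative. No marker of lymphocytes, neutrophils, adipocytes or exocrine pancreas reached the count rule, and 7 of 8 neutrophil and 5 of 7 adipocyte markers had 0 counts in all 10 libraries.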

How the data were processed

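RNA of heavy and light polysome pools was sequenced from 10 ng per pool with a stranded total RNA kit, per the labels' protocols. Each deposited table gives raw counts by Entrez gene identifier. Trimmomatic, HISAT2 and StringTie with build mm10 were used, per the submitters' processing notes, while per the file headers the aligner differed between animals. Versions, the counting tool, its strand setting and its treatment of multiply aligned reads are not stated in the labels or headers, so gene copies and overlapping or antisense genes are uncertain. ERCC was added to each pool, per the labels' protocols, and the tables hold 0 ERCC IDs, so no spike-in scaling was done. No sample column was left unused (0).

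Of 27179 IDs 25275 matched the RefSeq gene table of GRCm38.p6, 1904 did not, and 20970 were nuclear protein-coding. The rule of 10 counts in 4 libraries kept 8077. The 626 genes at exactly 4 libraries had a median mean count of 9.4 and the 681 at 3 libraries one of 7.3. 3236 genes reached 10 counts in all 10.

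Counts were scaled by TMM on the 8077 genes (factors 0.753 to 1.21) and fitted with edgeR 4.0.16 (R 4.3.3) over the 10 wild-type libraries, with the animal as a block (residual df 3) and a heavy effect per diet, two-sided, at a Benjamini-Hochberg adjusted p of 0.05. The script was tested on simulated data. The error is a standard error, the size of the log2 difference divided by the root of the F statistic. Ratios per animal use log2 CPM with a prior count of 2, and pool differences log2(CPM + 1). Ratios of the S209A animal use instead a plain added count of 2 and TMM factors over all 12 libraries. Ratios of RNAs outside the 8077 genes use an added count of 0.5. The pairing of pools comes from the labels: deviations from group means correlated at r = 0.267, 0.231 and 0.224 within chow animals, and at 0.058 in keto, where 2 animals mirror each other. Animals are the replicates, and the labels number them without saying more, so p-values measure the spread between these animals. The small number of animals limits the precision.

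The genes and lists were chosen with earlier results of these data known. Genes were named by a rule: 12 per direction with the smallest unadjusted p (none passed) at or above median expression (37.1 CPM), with both keto animals on 1 side of all chow animals and no predicted genes; the genes fixed by name (some of these and of the list genes are not reported here); and up to 4 per list with the smallest p. In total 37 lists were drawn up and 33 had measured members; they are described by counts and medians with no set test. The planned grouping by protein length was not run because no protein table was used here; gene span was used instead, chosen after seeing the data. The alternatives were RLE size factors, no scaling factor, TMM over all IDs, all biotypes, no filter, a mean of 50 counts, 10 counts in every library, DESeq2 1.42.0, limma-voom (limma 3.58.1), all 12 libraries, no block, a block across diets, the title wording as a batch, and leaving out each animal.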

Additional observations from a re-analysis of the deposited data

Results flagged for a closer look

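The median ratio lay above 0 in every chow animal and below 0 in every keto animal, or the reverse, in 5 gene lists. Cholangiocyte markers, with 3 measured genes, met this too and are left out of the 5. The median of all 8077 genes met the reverse form, at -0.10, -0.05 and -0.01 in chow and 0.005 and 0.08 in keto. The difference between the diets was not tested for any list. Peroxisomal and omega oxidation had a median diet difference of -0.79, secreted plasma proteins of -0.98 and nuclear-encoded respiratory chain subunits of -0.40. It was -0.60 for hepatocyte markers and 0.26 for stress genes with upstream open reading frames, against 0.14 over all genes. The secreted list and the hepatocyte markers share genes, so they are not separate observations. RNA of 2 kinds outside the measured genes stood above every chow heavy library in the heavy libraries of keto. Mitochondrial rRNA held 47.3% and 74.2% of all counts, and the drawn-up list of nuclear noncoding RNAs stood at 11.2% and 10.5% of the protein-coding counts.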

How the results depend on the processing

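The absence of calls in the diet difference was shared by RLE size factors, no scaling factor, TMM over all IDs, a mean of 50 counts, 10 counts in every library, all 12 libraries and the fit with no replicate block. Other settings called genes: 1 with all biotypes (Gm13498, lower), 17 with no filter, 6 with DESeq2 (4698 genes without an adjusted p) and 20 with limma-voom. The replicate block across diets called 206 and the title wording as a batch 192. In both, chow 3 has no partner and carries no weight, and all 163 genes called without chow 3 were among the 192, and 159 of them among the 206. The numbers 1 and 2 name different animals in the diets, so they do not pair samples. Leaving out 1 animal gave 0 to 163 calls. Heavy over light in chow, with 2 calls, gave 0 with no scaling factor, with a mean of 50 counts, with 10 counts in every library and with no replicate block. It gave 18 with no filter, 82 with DESeq2 (7516 genes without an adjusted p) and 66 with limma-voom. Leaving out 1 chow animal gave 0 to 327, the 327 without chow 3. In keto, with 0 calls, the counts were 12 with no filter, 3 with DESeq2, 14 with limma-voom and 0 to 26 without 1 animal, the 26 without chow 3. The cause was not tested.

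Of 134 named genes none reversed under RLE size factors, TMM over all IDs, all biotypes, no filter or DESeq2. With a mean of 50 counts 110 of them were tested, and with 10 counts in every library 94, and none of these reversed. With no scaling factor Alb (0.10), Igf1 (0.16), Fgf21 (0.28) and the medians of the respiratory chain (0.11), gluconeogenesis (0.24), other PPARalpha targets (0.17), urea cycle (0.21), ribosomal proteins (0.24), TOP factors (0.20), bile acid (0.44), periportal (0.12) and endothelial (0.40) lists turned positive, the list medians all below the median of all genes (0.64). Fgf21 was 0.95 with limma-voom and 0.80 with no replicate block. With the replicate block across diets Angptl4 was -0.22, G6pc -0.25 and Scd1 -0.52, and with the title wording -0.23, -0.27 and -0.52, with Scd1 at -0.12 with no replicate block. The cholangiocyte marker median was 0.013 with no replicate block, and the median of all genes -0.013 at 10 counts in every library. Without 1 animal the range crossed 0 for Pdk4 (-0.33 to 0.94), Fgf21 (-2.11 to 1.43), Angptl4 (-0.23 to 0.44), G6pc (-0.60 to 1.21), Fasn (-1.29 to 0.17), Scd1 (-1.08 to 1.12), Srebf1 (-1.62 to 0.34), Atf4 (-0.70 to 0.95), Eif4ebp1 (-1.87 to 0.96), Pklr (-0.40 to 3.41), Saa1 (-3.75 to 0.23), Myc (-0.68 to 7.28), and for the medians of ER and integrated stress (-0.16 to 1.5), cholangiocyte markers (-2.53 to 0.62), cholesterol synthesis (-0.22 to 0.96), ribosomal proteins (-0.58 to 0.13), TOP factors (-0.58 to 0.01), bile acid (-0.33 to 0.08), immediate early (-0.74 to 0.86) and endothelial (-0.39 to 0.34) genes. Without 1 animal the medians of secreted proteins, peroxisomal and omega oxidation, drug metabolism, heat shock and Mup genes stayed within 1.5 times. With no scaling factor they kept their sign at -0.47, -0.28, -0.37, -0.38 and -2.12 in the same order. Of these, only the Mup median then stayed within 1.5 times. Where 1 keto animal is left, it is assumed to vary as the chow animals do.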
